A study of Arabidopsis thaliana with 40 samples.

Results

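AT2G04050 and AT2G04070 are neighbouring genes of the MATE family (multidrug and toxic compound extrusion, called DTX in plants) on chromosome 2 of Arabidopsis thaliana. Each has 1 probe set on the array that pairs with no other gene, 263402_at for AT2G04050 and 263401_at for AT2G04070. They are 2 of 13355 genes with such a probe set. They were picked for their levels over all 16 groups of the study, so those levels and the differences between groups are given as a description, with standard deviations (SD) or standard errors (SE) and no test.

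MATE proteins are membrane carriers that move organic compounds out of the cytoplasm, into the vacuole or out of the cell, in exchange for protons or sodium ions. Plants hold large families of them, whose known cargoes include flavonoids, alkaloids, citrate and hormones. Several MATE genes belong to the nuclear genes that plants switch on when mitochondria are impaired. Part of this signalling runs through NAC017, a transcription factor that is released from the endoplasmic reticulum. The alternative oxidase AOX1A is the classical gene read in such work, and takes electrons from ubiquinol around the cytochrome pathway. RPOTMP is an RNA polymerase of the phage type that serves mitochondria and plastids.

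Leaf RNA was hybridised to 40 Affymetrix arrays in 3 sets, each holding a mutant and the Columbia wild type (WT) that the labels name as its control. The double mutant aox1a:rpoTmp has 3 arrays per treatment, and rpoTmp and aox1a have 2 lines each with 2 arrays per line and treatment. Every set has 3 WT arrays per treatment. Plants had either 4 d of moderate light and drought (MLD, about 350 µE of light and no water) or 4 d of continued growth at 100 µE with watering (untreated). The ages in the labels disagree. By the treatment protocol double mutants were 6 to 7 weeks old, rpoTmp 5 weeks, and aox1a and WT 4 weeks. The source names give 4 weeks for all groups. The characteristics give 4 weeks for the aox1a set and the WT of the rpoTmp set, and 5 weeks for rpoTmp. For the double mutant and its WT they give 4 weeks under MLD and 5 weeks untreated. In the rpoTmp and double sets genotype therefore cannot be told apart from age as the protocol gives it. The labels do not say how many plants stand behind an array, whether replicates were grown separately, what the mutant alleles are, or how many double mutant lines were used. All p-values below measure the spread between arrays only.

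Values are log2 of the deposited intensity. The labels could be checked against the arrays only in part. AOX1A has no probe set with a single gene, and that of RPOTMP was dim everywhere, with group means of 2.48 to 4.28. The leaf markers PSAN and LHCB4.2 were bright in all groups, with means of 10.9 to 13.9 and 9.70 to 13.9. The guard cell marker FMA (FAMA) lay between 5.50 and 6.55, and the other 5 leaf markers, 2 guard cell markers and all markers of floral organs, phloem and dividing cells on the list have no single-gene probe set. Array medians were 23.3 to 26.9 and lower quartiles 5.54 to 6.09 in intensity, and any pair of arrays correlated at 0.854 to 0.996. In leaf RNA a change in the number of cells of a type and a change in RNA per cell cannot be told apart.

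In WT leaves both MATE genes were near the floor of the arrays. AT2G04050 ranged from 2.74 to 3.07 over the 18 WT arrays, with a median of 2.96, and AT2G04070 from 2.53 to 3.33, with a median of 2.86. In intensity these ranges are 6.68 to 8.41 and 5.78 to 10.05, close to the arrays' lower quartile. Under MLD they stayed there: for AT2G04050 the difference between MLD and untreated WT was 0.09 ± 0.22 (SE) in the double set, -0.02 ± 0.30 in the rpoTmp set and 0.09 ± 0.09 in the aox1a set. For AT2G04070 it was -0.03 ± 0.17, 0.10 ± 0.15 and 0.12 ± 0.14 in the same order of sets. At this level a fall could not be followed, and the size of a difference against WT depends on where the floor lies.

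The double mutant had the highest levels of both genes, in untreated plants. AT2G04050 measured 10.17, 11.27 and 10.39 on the 3 untreated double mutant arrays, against 2.84, 2.82 and 2.90 on the untreated WT arrays of that set. Every double mutant array lay far above every WT array, at intensities of 1151 to 2468 against 7.05 to 7.45. AT2G04070 measured 9.79, 9.77 and 9.37 in untreated double mutants, against 2.77, 2.92 and 2.64 in untreated WT. Its groups were as far apart from overlap, with intensities of 660 to 884 in the double mutant and 6.25 to 7.57 in WT. The difference between double mutant and WT was 7.76 ± 0.22 (SE) for AT2G04050 and 6.86 ± 0.17 for AT2G04070 on the log2 scale. Over 22746 probe sets these were the 2nd and the 8th largest differences in that direction. In the same comparison limma called 19.7% of all probe sets with a Benjamini-Hochberg adjusted p under 0.05: 10.1% were higher and 9.61% lower in the double mutant. The calls are the background for the gene lists below, and nothing is read from them for the MATE pair, which was chosen on these values.

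Under MLD the double mutant had less of both transcripts than untreated, and still far more than WT. AT2G04050 measured 9.41, 9.42 and 9.28 in double mutants under MLD, against 2.94, 2.92 and 2.97 in WT under MLD. AT2G04070 measured 6.84, 7.45 and 6.92 in double mutants under MLD, against 2.62, 2.91 and 2.72 in WT under MLD. For each gene all 3 MLD arrays of the double mutant were below all 3 untreated ones. The difference to WT under MLD was 6.43 ± 0.22 for AT2G04050, the largest of 22746 probe sets, and 4.32 ± 0.17 for AT2G04070, the 15th largest. In this comparison limma called 35.9% of all probe sets, 18.8% as higher in the double mutant and 17.1% as lower. Between MLD and untreated double mutants AT2G04050 differed by -1.24 ± 0.22 and AT2G04070 by -2.58 ± 0.17. Without untreated double mutant replicate 2, the array with the highest AT2G04050 value, the AT2G04050 difference was -0.91.

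**Figure D1:**
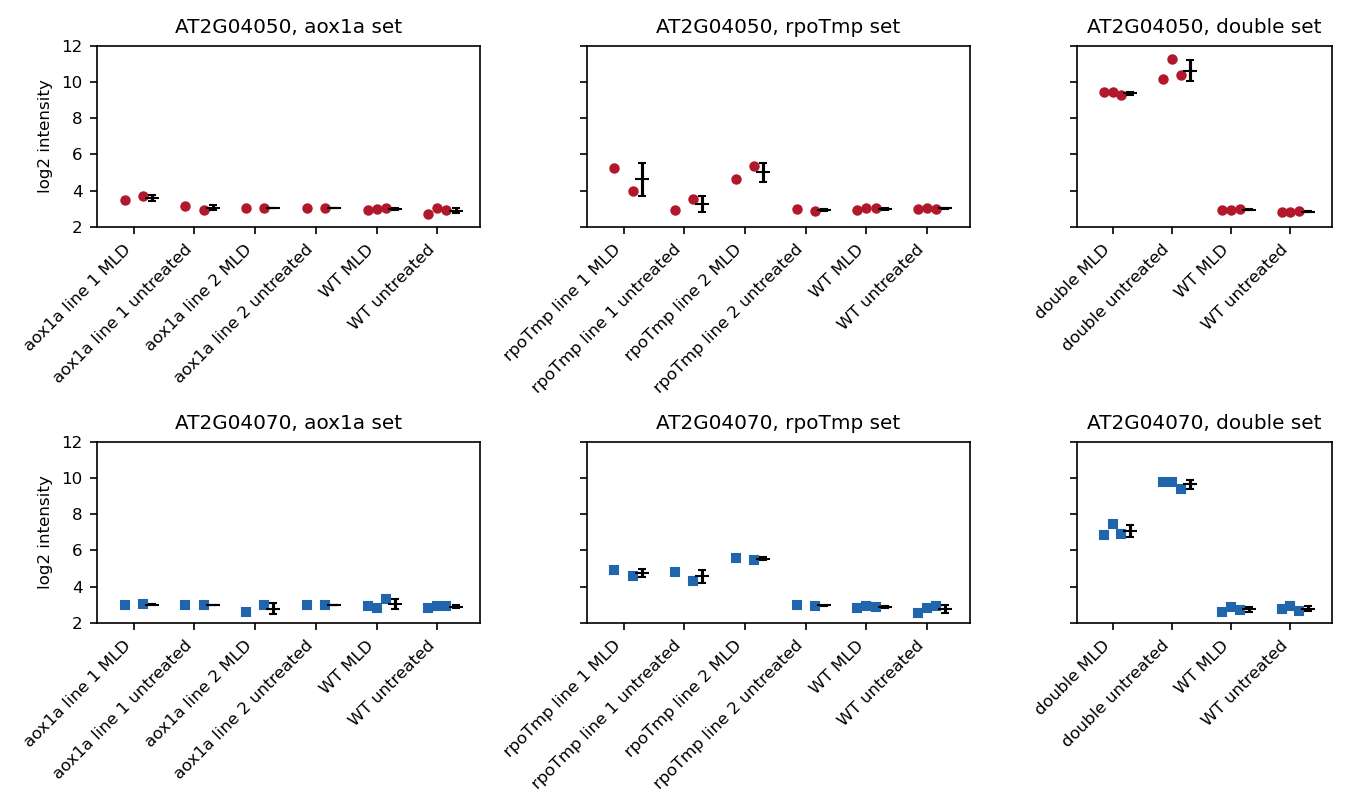
Log2 intensity of AT2G04050 (circles, upper row) and AT2G04070 (squares, lower row) on each of the 40 arrays, by group in the 3 sets, with the group mean and SD (2 or 3 arrays) as a bar beside the points. WT arrays stay between 2.53 and 3.33, the rpoTmp lines reach 5.60, and the double mutant lies between 6.84 and 11.27.

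In the double set RNA quality differed between double mutant and WT by the first pair of GAPDH control probe sets, and overlapped by the second. The first pair had a log2 ratio of 3′ to 5′ signal of 3.06 to 3.57 in the double mutant under MLD against 3.88 to 4.10 in WT, and of 3.13 to 3.25 against 3.49 to 3.66 untreated. The second pair overlapped between the groups, with 0.298 to 0.605 in the double mutant against 0.395 to 0.647 in WT under MLD. Untreated it read 0.386 to 0.418 against 0.335 to 0.423. In the rpoTmp set the first pair overlapped between mutant and WT. The second pair read 0.0882 to 0.108 in untreated line 1, against -0.467 to -0.217 in line 2 and -0.286 to -0.0733 in WT. Under MLD it read 0.178 to 0.414 in line 1 and 0.153 to 0.405 in line 2, against -0.224 to 0.183 in WT. The part of RNA quality in the MATE differences was not tested.

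In rpoTmp both genes stood between WT and the double mutant under MLD, and the lines differed in untreated plants. AT2G04050 measured 5.25 and 3.99 in line 1 and 4.65 and 5.37 in line 2 under MLD, against 2.93, 3.04 and 3.05 in the WT arrays. All 4 mutant arrays were above the WT arrays. AT2G04070 measured 4.92 and 4.61 in line 1 and 5.60 and 5.50 in line 2 under MLD, against 2.82, 2.93 and 2.87 in WT. Here too no array of either line reached down to WT, and line 2 was above line 1. Averaged over lines, the difference between rpoTmp and WT under MLD was 1.81 ± 0.28 (SE) for AT2G04050 and 2.28 ± 0.14 for AT2G04070. In that comparison limma called 30% of all probe sets, 15.7% as higher in rpoTmp and 14.3% as lower. Markers of leaf photosynthesis moved with the same comparison. Of the list 2 were measured, and both were lower in rpoTmp than in WT under MLD, PSAN at -1.90 ± 0.17 and LHCB4.2 at -2.05 ± 0.39 (adjusted p = 4.6e-05 and 0.00301, limma), and neither was called untreated. PSAN ran from 10.66 to 11.46 in rpoTmp against 12.79 to 13.02 in WT under MLD, and LHCB4.2 from 9.19 to 11.28 against 11.93 to 12.07. Their part in the MATE differences was not tested.

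Without stress, AT2G04070 stood above WT in rpoTmp line 1 and near WT in line 2. It measured 4.83 and 4.32 in untreated line 1 and 3.00 and 2.93 in untreated line 2, against 2.53, 2.84 and 2.95 in untreated WT. The difference to WT was 1.80 ± 0.16 in line 1 and 0.19 ± 0.16 in line 2, so the mean over lines, 0.99 ± 0.14, describes neither line. AT2G04050 measured 2.94 and 3.56 in line 1 and 2.97 and 2.89 in line 2, against 2.99, 3.07 and 3.00 in untreated WT. One line 1 array stood above the WT range and the other just below it, and the mean difference was 0.07 ± 0.28. In the untreated comparison the calls made up 1.55% of all probe sets, 0.901% higher in rpoTmp and 0.651% lower.

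The step between MLD and untreated plants also differed between the lines for AT2G04070, at 0.19 in line 1 and 2.58 in line 2. For AT2G04050 it was 1.37 in line 1 and 2.08 in line 2. Over both lines MLD minus untreated was 1.73 ± 0.26 for AT2G04050 in rpoTmp, opposite in sign to the double mutant. For AT2G04070 the mean over lines was 1.39 ± 0.13, which describes neither line, and its SE leaves out the gap between lines. In line 1 the AT2G04070 arrays under MLD overlapped the untreated ones. Line 2 rose, opposite in sign to the double mutant. Each mutant had its own WT arrays, and the arrays of the 2 mutants share no control. Their steps therefore compare sets as well as genotypes. The mutant step minus the WT step was 1.74 ± 0.40 and 1.29 ± 0.19 in the rpoTmp set, against -1.33 ± 0.32 and -2.55 ± 0.25 in the double set. The 1.29 for AT2G04070 is also a mean over unlike lines.

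**Figure D2:**
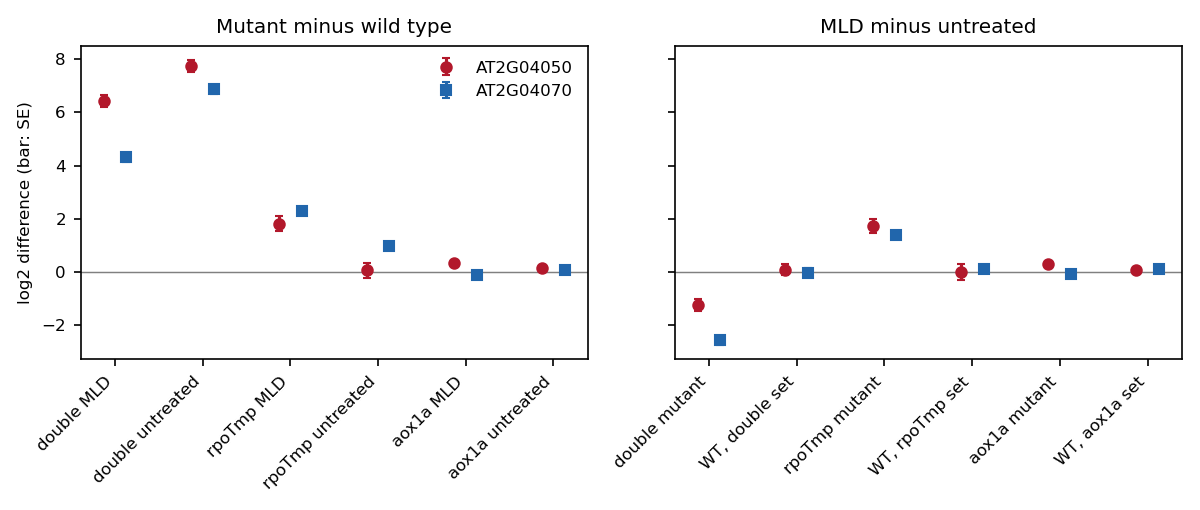
Differences in log2 intensity with their SE for AT2G04050 (circles) and AT2G04070 (squares), mutant minus WT of the same set on the left and MLD minus untreated on the right. The double mutant lies between 4.32 and 7.76 above WT. Its MLD step is below 0, where the rpoTmp mean over lines is above 0. For AT2G04070 that mean covers steps of 0.19 in line 1 and 2.58 in line 2.

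In aox1a the 2 genes stayed near WT. AT2G04050 measured 3.48 and 3.73 in line 1 and 3.06 and 3.07 in line 2 under MLD, against 2.95, 2.99 and 3.03 in WT. Line 1 stood 0.61 ± 0.10 above WT and line 2 0.07 ± 0.10, both small beside the rpoTmp differences. Untreated it measured 3.16 and 2.96 in line 1 and 3.03 and 3.06 in line 2, against 2.74, 3.03 and 2.94 in WT. AT2G04070 measured 2.99 and 3.03 in line 1 and 2.58 and 3.00 in line 2 under MLD, against 2.95, 2.80 and 3.33 in WT, and overlapped WT. Untreated it measured 2.98 and 3.00 in line 1 and 2.98 and 2.99 in line 2, against 2.81, 2.96 and 2.96 in WT. All 4 aox1a arrays lay slightly above the WT arrays, by less than the range within WT. The mean differences between aox1a and WT were 0.34 ± 0.08 under MLD and 0.15 ± 0.08 untreated for AT2G04050, and -0.13 ± 0.13 and 0.08 ± 0.13 for AT2G04070. Under MLD the calls made up 12.4% of all probe sets, 6.26% higher in aox1a and 6.14% lower. Untreated they made up 6.85%, 3.28% higher and 3.57% lower. The same leaf markers were lower in aox1a than in WT under MLD, PSAN at -1.43 ± 0.15 and LHCB4.2 at -2.37 ± 0.15 (adjusted p = 0.00132 and 0.000113, limma), and were not called untreated. In the double mutant under MLD PSAN was higher by 0.42 ± 0.10 (adjusted p = 0.00865) and LHCB4.2 had -0.17 ± 0.13 (adjusted p = 0.358). Their part in these differences was not tested either.

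The double mutant exceeded what the single mutants add up to on the log2 scale. When the 40 arrays were fitted jointly and every mutant was referred to its own WT, the double mutant difference minus the sum of both single mutant differences was 7.54 ± 0.39 (SE) untreated and 4.27 ± 0.39 under MLD for AT2G04050. For AT2G04070 it was 5.79 ± 0.26 untreated and 2.16 ± 0.26 under MLD. Set against rpoTmp alone, the double mutant difference was larger by 7.69 ± 0.32 untreated and 4.62 ± 0.32 under MLD for AT2G04050, and by 5.87 ± 0.22 and 2.03 ± 0.22 for AT2G04070. The sets differ in labelled age and perhaps in processing, so these values compare sets as well as genotypes. For untreated AT2G04070 the 5.79 and 5.87 subtract the rpoTmp mean over lines of 0.99, where line 1 had 1.80 and line 2 0.19. Their SE leave out this gap. WT and aox1a stood near the floor, so the excess on the log2 scale also depends on where the floor lies.

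The order of the group means was the same for both genes at the top: untreated double mutant, double mutant under MLD, rpoTmp line 2 under MLD, rpoTmp line 1 under MLD. For AT2G04050 these means were 10.61 ± 0.58 and 9.37 ± 0.08 (SD, n = 3 each), then 5.01 ± 0.51 and 4.62 ± 0.89 (n = 2 each). The 2 rpoTmp lines overlapped each other, and line 1 stood clear of the next group, aox1a line 1 under MLD at 3.60 ± 0.17 (n = 2). For AT2G04070 the means were 9.64 ± 0.24 and 7.07 ± 0.33 (n = 3 each), then 5.55 ± 0.07 and 4.77 ± 0.22 (n = 2 each). Untreated rpoTmp line 1 followed at 4.57 ± 0.36 (n = 2) and overlapped the same line under MLD, but no lower group. Below these places the remaining group means ran from 3.25 to 2.85 for AT2G04050 and from 3.03 to 2.75 for AT2G04070, and each overlapped its neighbour in the order. Over the 16 group means the 2 genes correlated with Pearson's r of 0.958 and Spearman's rho of 0.782, and with r of 0.882 over the 14 groups without the double mutant. The points share arrays, and r rests largely on the few groups with high levels.

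The gene table places 5 genes between AT2G04050 and AT2G04070, 4 of them protein coding, and places DTX1, which the table names detoxification 1, just before AT2G04050. Of the genes in between, AT2G04060 and AT2G04063 have single-gene probe sets. AT2G04060 had group means of 2.05 to 2.12 and AT2G04063 of 3.17 to 3.47. Neither was called between double mutant and WT (untreated, AT2G04060 0.02 ± 0.03 with adjusted p = 0.772 and AT2G04063 -0.13 ± 0.05 with adjusted p = 0.131, limma). Both stayed dim in all 16 groups. Probe sets of other genes in this stretch pair with several genes each and are given by identifier only, without a gene. 263405_s_at measured 8.40, 8.87 and 8.54 in untreated double mutants, against 6.87, 6.78 and 6.66 in untreated WT, a difference of 1.83 ± 0.17 (SE, adjusted p = 0.000118, limma). Under MLD it measured 8.47, 8.70 and 8.62 in the double mutant and 8.54, 8.20 and 7.89 in WT, and was not called (0.39 ± 0.17, adjusted p = 0.107). Unlike the MATE pair it was bright in WT leaves of every set, and it was higher under MLD than untreated in the WT of the double set (1.44 ± 0.17, adjusted p = 7.6e-05). Both the 1.83 and the 1.44 are taken against an untreated WT group that was low beside the other sets. Its mean was 6.77, where untreated WT had 8.47 in the aox1a set and 8.28 in the rpoTmp set, and the untreated double mutant 8.60. In the WT of those sets the MLD step was 0.28 ± 0.22 and 0.08 ± 0.13 and was not called (adjusted p = 0.620 and 0.894, limma). 263404_s_at was dim, with group means of 3.03 to 3.31 in the double set, and was not called in the double mutant (untreated, 0.29 ± 0.16, adjusted p = 0.275). In rpoTmp it was called higher than in WT under MLD (0.65 ± 0.21, adjusted p = 0.0383, limma) and not untreated. For 263405_s_at the reverse held in rpoTmp, with 0.96 ± 0.12 untreated (adjusted p = 0.00865) and 0.10 ± 0.12 under MLD (adjusted p = 0.661). Neither was called between aox1a and WT, though 263404_s_at read 6.07 on an aox1a line 1 array under MLD. Whether probes of one gene in the stretch also bind RNA of another was not tested.

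The rest of the MATE family did not move as a block. Of 55 other MATE genes on a list written for this comparison, 35 have a single-gene probe set. In untreated double mutants 4 of the 35 were higher and 4 lower than in WT (11.4% each way, where 10.1% and 9.61% of all probe sets were called), with a median difference of -0.01 against -0.03 over all probe sets. The higher ones were AT1G33110 at 2.33 ± 0.23 (SE), AT5G65380 at 2.30 ± 0.20, AT3G26590 at 1.31 ± 0.23 and AT1G71140 at 1.304 ± 0.198, with adjusted p of 0.00018, 8.4e-05, 0.00336 and 0.0017 (limma). The lower ones were AT1G61890 at -2.32 ± 0.46, AT5G44050 at -1.86 ± 0.35, AT5G17700 at -1.82 ± 0.24 and AT2G38330 at -0.91 ± 0.18 (adjusted p = 0.00721, 0.00546, 0.000777 and 0.00588). No measured MATE gene outside the pair came near its 6.86 or 7.76.

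Under MLD 5 of the 35 were higher (14.3%) and 9 lower (25.7%) in the double mutant than in WT, where 18.8% and 17.1% of all probe sets were called, with a median of -0.04 against -0.02 over all probe sets. AT1G61890 and AT5G44050 were lower by the most, at -4.27 ± 0.46 and -4.17 ± 0.35, followed by AT5G52050 at -2.75 ± 0.65 and AT1G11670 at -2.21 ± 0.39 (adjusted p = 8.6e-05, 2.2e-05, 0.00825 and 0.00158, limma). AT5G52050 is DTX50, detoxification efflux carrier 50 in the gene table, and is known as an exporter of the stress hormone abscisic acid. The higher ones included AT1G15180 at 1.74 ± 0.12, AT1G71140 at 0.95 ± 0.20, AT5G65380 at 0.82 ± 0.20 and AT2G38330 at 0.73 ± 0.18 (adjusted p = 9.8e-06, 0.00385, 0.00855 and 0.00875).

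Many of these genes differed between MLD and untreated plants in the WT of the double set, where the MATE pair stayed at the floor. Between MLD and untreated WT 15 of the 35 were higher and 4 lower, where 18.3% and 24.2% of all probe sets were called. DTX50 rose by 8.43 ± 0.65 and AT1G61890 by 5.72 ± 0.46 (adjusted p = 6.4e-06 and 8.2e-06, limma). In the double mutant the same step was called for 8 higher and 1 lower, where 10.2% and 11.9% were called in all. There DTX50 rose by 5.63 ± 0.65 and AT1G61890 by 3.77 ± 0.46 (adjusted p = 0.00033 and 0.000455, limma). AT3G23550 fell by 4.97 on the log2 scale, and the lowest of the 35 differences in WT for this step was -4.22. The WT of the other sets lacked rises as large as that of DTX50. Over the 35 genes their MLD steps ran from -0.55 to 1.51 in the rpoTmp set and from -4.21 to 1.99 in the aox1a set. The MATE pair was the reverse of DTX50 in the double set, high in the untreated double mutant and at the floor in WT under MLD. The age in the characteristics also differs between the 2 treatments of this set, so its MLD steps and age cannot be told apart.

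**Figure D3:**
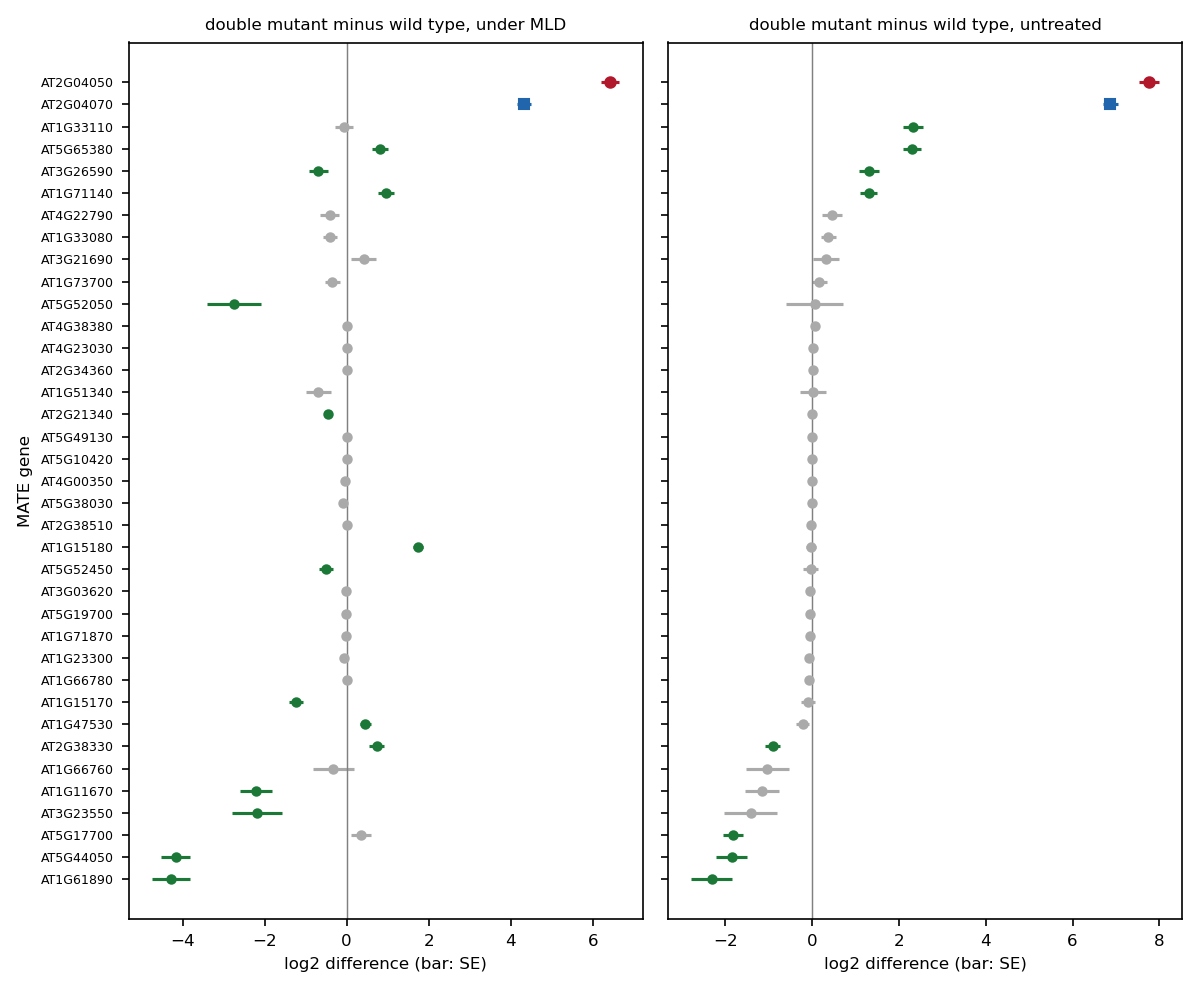
Difference in log2 intensity (bars, SE) between double mutant and WT for AT2G04050 (red circle), AT2G04070 (blue square) and the 35 other measured MATE genes, under MLD on the left and untreated on the right, in the order of the untreated difference. Green points were called at an adjusted p under 0.05 and grey points were not; the pair stands apart at 4.32 to 7.76.

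In rpoTmp under MLD 7 of the 35 other MATE genes were higher and 3 lower than in WT (20.0% and 8.57%, where 15.7% and 14.3% of all probe sets were called). AT5G65380 was higher by 2.40 ± 0.24, AT1G73700 by 2.06 ± 0.17, AT1G71140 by 1.85 ± 0.18 and AT3G21690 by 1.78 ± 0.17 (SE, adjusted p = 8.3e-05, 3.5e-05, 7e-05 and 6.2e-05, limma). The lower ones were AT1G15180 at -0.82 ± 0.25, AT1G11670 at -0.60 ± 0.19 and AT2G38330 at -0.47 ± 0.14. The count of 10 fell to 5 without rpoTmp line 1 replicate 1 or WT replicate 1 under MLD, and to 6 without WT replicate 3 under MLD. Untreated, AT3G21690 at 1.05 ± 0.17, AT1G71140 at 1.01 ± 0.18 and AT1G33080 at 0.95 ± 0.16 were higher (adjusted p = 0.0227, 0.0295 and 0.0275) and none was lower. The untreated share of 8.57% higher stands beside 0.901% of all probe sets. The untreated count was 0 without untreated line 1 replicate 2, line 2 replicate 2 or WT replicate 1, and 1 without line 1 replicate 1 or WT replicate 3.

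In aox1a 2 of the 35 were higher and 2 lower under MLD (5.71% each way, near the 6.26% and 6.14% of all probe sets), namely AT5G65380 at 1.11 ± 0.19, AT3G26590 at 0.74 ± 0.13, AT5G17700 at -1.88 ± 0.31 and AT1G11670 at -1.32 ± 0.32 (adjusted p = 0.00831, 0.00907, 0.00688 and 0.0309, limma). Untreated, AT1G73700 at -1.49 ± 0.21, AT3G26590 at -0.57 ± 0.13 and AT4G23030 at -0.41 ± 0.06 were lower (adjusted p = 0.0179, 0.0437 and 0.0202) and none was higher, where 3.57% and 3.28% of all probe sets were called. The untreated count was 1 without aox1a line 2 untreated replicate 1. AT5G65380 was called higher under MLD in all 3 mutants. AT1G71140 was called higher in rpoTmp and the double mutant with and without stress, and had 0.13 under MLD and 0.02 untreated in aox1a, with adjusted p of 0.774 and 0.956.

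Genes known to respond to impaired mitochondria were examined beside the pair. Of 20 genes on that list, 9 have a single-gene probe set. In untreated double mutants 7 of the 9 were higher than in WT and none was lower (10.1% and 9.61% of all probe sets), with a median difference of 4.02 against -0.03 over all probe sets. AT5G51440 was higher by 7.50 ± 0.27 (SE), AT5G09570 (on the list as AT12CYS-2) by 7.10 ± 0.30, AT2G21640 (on the list as UPOX) by 5.91 ± 0.22, and NDB4, an alternative NAD(P)H dehydrogenase, by 4.92 ± 0.34. Adjusted p-values (limma) of these 4 lay between 8.4e-07 and 2.7e-05. AT2G32020, NDB2 and AT5G64400 were higher by 4.02 ± 0.58, 3.52 ± 0.22 and 0.34 ± 0.05, while AT2G41380 had 1.11 ± 0.41 and AT5G14730 0.97 ± 0.68, with adjusted p of 0.0983 and 0.392. The 7.76 and 6.86 of the MATE pair are of the size of the first 3 of these. The list and the pair were drawn up with these results known, so their common direction is a description.

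Under MLD 4 of the 9 were higher in the double mutant (44.4%) and 2 lower (22.2%), where 18.8% and 17.1% of all probe sets were called, with a median of 1.34. AT5G51440 was higher by 6.18 ± 0.27, AT5G09570 by 5.38 ± 0.30, AT2G21640 by 4.56 ± 0.22 and NDB4 by 2.13 ± 0.34 (adjusted p = 1.1e-06, 3.5e-06, 2e-06 and 0.000769, limma). The lower ones were NDB2, also an alternative NAD(P)H dehydrogenase, at -1.19 ± 0.22 and AT2G41380 at -1.25 ± 0.41 (adjusted p = 0.00175 and 0.0396). AT2G32020 at 1.34 ± 0.58, AT5G14730 at -1.03 ± 0.68 and AT5G64400 at -0.04 ± 0.05 were not called (adjusted p = 0.108, 0.302 and 0.682). Between MLD and untreated double mutants 5 of the 9 fell and none rose, where 11.9% of all probe sets were called lower. These were NDB4 at -2.99 ± 0.34, AT2G32020 at -2.75 ± 0.58, NDB2 at -1.69 ± 0.22, AT2G21640 at -0.997 ± 0.222 and AT5G51440 at -0.95 ± 0.27 (adjusted p = 0.000284, 0.00795, 0.000547, 0.0104 and 0.0303, limma). The corresponding values of the pair were -1.24 and -2.58. Between MLD and untreated WT of the double set 5 of the 9 rose and none fell, where 18.3% of all probe sets were called higher. AT5G14730 rose by 3.31 ± 0.68, NDB2 by 3.02 ± 0.22, AT2G41380 by 1.61 ± 0.41 and AT5G09570 by 1.09 ± 0.30 (adjusted p = 0.00283, 4.1e-06, 0.00995 and 0.0149, limma), where the pair had 0.09 and -0.03. The same WT steps of the 9 ran from -0.09 to 1.22 in the rpoTmp set and from -0.18 to 2.06 in the aox1a set.

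In rpoTmp under MLD 5 of the 9 were higher than in WT and none lower, where 15.7% and 14.3% of all probe sets were called, AT5G09570 by 5.24 ± 0.84, AT2G41380 by 4.13 ± 0.23, AT2G21640 by 1.60 ± 0.35 and NDB2 by 1.32 ± 0.20 among them (adjusted p = 0.0012, 6.7e-06, 0.00629 and 0.00101, limma). AT5G51440, whose pattern over all groups was most like that of the pair, had 1.27 ± 0.43 (adjusted p = 0.0512), beside 1.81 and 2.28 for the pair. Untreated, AT5G09570 at 4.56 ± 0.84, AT2G21640 at 2.31 ± 0.35 and NDB2 at 1.34 ± 0.20 were higher (adjusted p = 0.0345, 0.0179 and 0.0193), where 0.901% of all probe sets were. The count was 0 without untreated line 1 replicate 2, line 2 replicate 2, or WT replicate 1 or 2. In aox1a none of the 9 was higher in either treatment, and AT2G21640 was lower under MLD at -1.41 ± 0.32 (adjusted p = 0.0236), where 6.14% of all probe sets were. The count of 1 was 0 with the replicate number as a block, with either line alone, and without aox1a line 2 replicate 1 or WT replicate 3 under MLD. It was 2 without aox1a line 1 replicate 1 under MLD and 3 without untreated WT replicate 2.

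Tau class glutathione transferases, which conjugate foreign compounds with glutathione, are often discussed with MATE carriers as steps of detoxification. Of 27 on the list 11 were measured. In untreated double mutants 4 were higher than in WT and none lower, where 10.1% and 9.61% of all probe sets were called, GSTU25 at 3.98 ± 0.68 (SE), GSTU22 at 2.84 ± 0.48, GSTU16 at 2.04 ± 0.27 and GSTU18 at 1.05 ± 0.16 (adjusted p = 0.00322, 0.00292, 0.000829 and 0.00152, limma). Under MLD 3 were higher and none lower, where 18.8% and 17.1% were called in all, GSTU20 at 0.79 ± 0.17, GSTU27 at 0.71 ± 0.11 and GSTU18 at 0.57 ± 0.16 (adjusted p = 0.00453, 0.00075 and 0.0168). In rpoTmp under MLD 1 was higher and 4 lower (15.7% and 14.3% of all probe sets), among them GSTU20 at -2.14 ± 0.31 and GSTU18 at -1.41 ± 0.12 (adjusted p = 0.000702 and 3.9e-05), with both genes of the MATE pair higher in the same leaves. In aox1a under MLD 1 was higher and 4 lower (6.26% and 6.14% of all probe sets), a count of 5 that was 3 without WT replicate 1 under MLD.

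The few genes with a pattern most like that of the pair were sought among 6952 single-gene probe sets with a group mean of at least 5 somewhere. Likeness was Pearson's r over the 16 group means with the average of the 2 genes, each centred on its mean. The 10 most alike had r between 0.905 and 0.978, and 11 exceeded 0.9. AT5G51440 came first at 0.978, then AT1G24095 at 0.964, AT2G41730 at 0.953, AT3G07860 at 0.931 and AT4G28460 at 0.923. AT2G03130, AT2G21640, NDB4, AT1G51380 and AT4G36580 followed with 0.923, 0.921, 0.919, 0.919 and 0.905. Of these 10, AT5G51440, AT2G21640 and NDB4 are on the mitochondrial stress list. The pair is highest in the double mutant, so choosing by r favours genes that are high there, and 8 of the 10 reached a group mean of 5 only in double mutant groups. The 10 stood above WT in the double mutant by 1.57 to 6.18 under MLD and by 1.11 to 7.50 untreated, which describes the choice. They differed in rpoTmp: AT2G41730 stood 2.43 above WT under MLD and 1.13 untreated, while AT2G03130 stood at -0.01 and -0.02.

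The order of likeness changed with the measure. By Spearman's rho, which weighs all 16 groups alike, the 10 reached only 0.01 to 0.59 and none of them was among the top 10 by rho. With each group taken relative to the untreated WT of its own set, 6 of the 10 stayed in the top 10 by r.

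**Figure D4:**
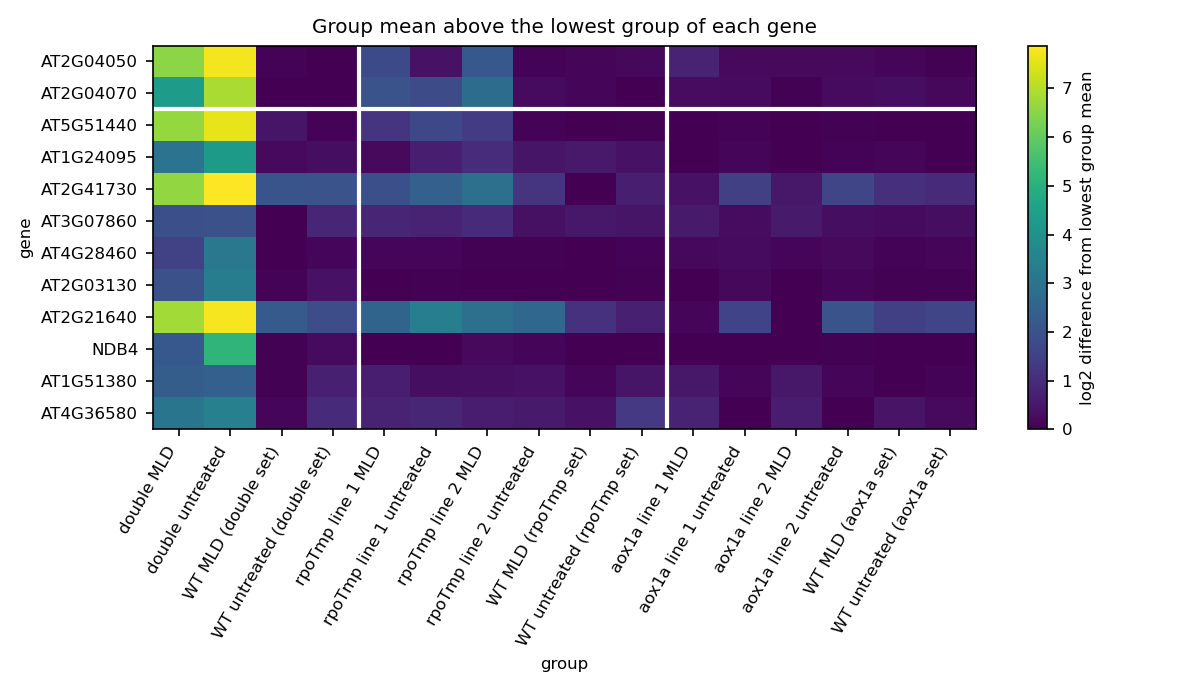
Group mean log2 intensity above the lowest group mean of the same gene (colour scale) in the 16 groups, for AT2G04050 and AT2G04070 (top) and the 10 single-gene probe sets with the highest r, from 0.978 (AT5G51440) to 0.905 (AT4G36580). White lines separate the pair from the other genes and the double, rpoTmp and aox1a sets, and the double mutant columns are the brightest in most rows.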

How the data were processed

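The values deposited by the authors are linear intensity values of 22810 probe sets on the Affymetrix ATH1 array, in 1 table. Tools named in the submitters' processing notes are GCRMA, MAS5, Partek 6.5 and Affymetrix Expression Console, without roles or order. Log2 was taken with no pseudocount. The 64 control probe sets were left out, which leaves 22746. Of these, 13513 pair with 1 gene, 503 with several and 8730 with none, and 13436 of the 13513 matched the gene table (TAIR10.1, names and gene order only). Differences and SE came from limma 3.58.1 in R 4.3.3, each set fitted alone with 1 coefficient per group and the lines of a single mutant averaged with equal weight. p-values were adjusted (Benjamini-Hochberg) over all 22746 probe sets of a comparison.

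The pair and the gene lists were chosen with earlier results of these data known. Named genes are the pair, up to 4 called members of a list in each direction per comparison by size, all members not called where a list has 10 or fewer measured, the 10 most alike by r, and neighbours on the chromosome. In simulated data for 22746 probe sets, 100 were changed by a log2 of 1 and 100 by 2. For untreated double mutant against WT 73% of changes of 1 and 87% of changes of 2 were recovered. The shares were 74% and 96% for aox1a, and 69% and 96% for rpoTmp. Far fewer probe sets changed there than the 19.7% called in the untreated double mutant, so these shares do not carry over to the calls above. Deviations of same-numbered arrays correlated over 0.1 in 10 of 31 pairs in the aox1a set, where r ran from -0.366 to 0.531. The count was 6 of 31 in the rpoTmp set and 1 of 18 in the double set. In groups of 2 arrays, as in the single mutants, the deviations mirror each other, so there the check cannot show pairing. The main fits left the arrays unpaired. Intensity close to the floor limits precision, as does the number of arrays. No sequence or genome was used here.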

Additional observations from a re-analysis of the deposited data

Results flagged for a closer look

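The step of AT2G04050 between MLD and untreated plants ran opposite ways in different genotypes. It was 1.73 in rpoTmp, where each line's MLD arrays lay above its untreated arrays, and -1.24 in the double mutant, where all 3 MLD arrays lay below all 3 untreated ones. In the WT of the double set it was 0.091. The difference between these steps was not tested, since the gene was chosen on these levels. The 2 mutants belong to different sets, whose WT also differed in their MLD steps. Among the 35 other measured MATE genes the largest WT step was 8.43 in the double set and 1.51 in the rpoTmp set. The opposite steps therefore compare sets as well as genotypes.

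Probe sets that the table used pairs with no gene were compared with the pair too. Among 5837 such probe sets 12 had r over 0.9 with the pair over the 16 group means. The 5 with the highest r were picked by their likeness to a pair that is high in the double mutant, so their levels there describe the choice, and 3 of the 5 reached a group mean of 5 only in double mutant groups. They stood above WT in untreated double mutants by 5.46 (263403_at), 5.96 (253046_at), 8.22 (263231_at), 6.98 (247435_at) and 5.03 (266217_at) on the log2 scale. 263231_at measured 10.50 ± 0.44 in untreated double mutants and 2.28 ± 0.04 in untreated WT (SD, n = 3 each). 263403_at measured 7.95 ± 0.37 in untreated double mutants and 2.49 ± 0.01 in untreated WT.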

How the results depend on the processing

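Over 18 settings, the main fit among them, the double mutant differences under MLD ran from 5.37 to 6.47 (AT2G04050) and from 3.07 to 4.43 (AT2G04070). Untreated they ran from 6.61 to 7.98 and from 5.64 to 7.00. The pair was chosen on these levels, so no setting was likely to change the sign, and the ranges are a description. The joint fit and leaving out dim probe sets cannot move a difference of group means. The lowest values came from raising intensities to at least 16 before log2, which lifts the dim WT arrays. Under that floor AT2G04050 gave 5.37 and 6.61 in the double mutant, 0.82 in rpoTmp under MLD and 0 in aox1a in both treatments. AT2G04070 gave 3.07 and 5.64 in the double mutant and 1.16 and 0.29 in rpoTmp. Other MATE calls were then 6 in rpoTmp under MLD and 1 in untreated aox1a.

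Taken alone, rpoTmp lines 1 and 2 gave 1.89 and 2.67 for AT2G04070 under MLD and 1.80 and 0.19 untreated, and aox1a lines 1 and 2 gave 0.61 and 0.074 for AT2G04050 under MLD. Other MATE calls were 5 in rpoTmp line 1 under MLD, 0 in untreated rpoTmp line 2, and 1 under MLD and 0 untreated in aox1a line 2. One fit of all 40 arrays gave 7 other MATE calls in aox1a under MLD and 7 untreated, and 3 mitochondrial stress calls in aox1a under MLD, where the floor and leaving out dim probe sets each gave 2. With the replicate number as a replicate block, other MATE calls in rpoTmp were 6 under MLD and 1 untreated, and mitochondrial stress calls 1 untreated, and in aox1a under MLD 0. Every group of the double set holds the same replicate numbers, so there the block cannot move a difference of group means. The double mutant differences stayed at 6.43 and 7.76 for AT2G04050 and 4.32 and 6.86 for AT2G04070 by design.

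Leaving out 1 array at a time, the untreated double mutant difference of AT2G04050 ran from 7.43 (without untreated double mutant replicate 2) to 7.98. Other MATE calls ran from 1 to 4 in untreated aox1a, from 5 to 10 in rpoTmp under MLD and from 0 to 3 in untreated rpoTmp. Quantile normalization moved none of the pair's differences by more than the spread between arrays.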
